A study of Mus musculus with 13 samples.

Results

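The troponin family was followed through a circadian time course of mouse aorta as a readout of the striated muscle in or near the vessel. The members were the 8 genes Tnnt1, Tnnt2, Tnnt3, Tnni1, Tnni2, Tnni3, Tnnc1 and Tnnc2, of 8251 genes annotated on the array, and every probe set that the platform annotation assigned to them was taken. That gave 10 of 12422 probe sets, of which 9 passed the intensity filter, at least 1 for each gene. The genes were grouped by the muscle that uses them: fast skeletal (Tnnt3, Tnni2 and Tnnc2), slow skeletal (Tnnt1 and Tnni1), cardiac (Tnnt2 and Tnni3), and Tnnc1, which serves both slow skeletal and cardiac muscle.

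The aortae came from c57/Bl6 mice, an inbred strain, and the labels give neither age nor sex. All animals were entrained for 2 weeks to days of 12 h light and 12 h dark, were held in constant darkness for 36 h, and gave aortae every 4 h across 48 h. Each of 12 time points, from circadian time 18 (CT18) to CT62, was a pool of 6 aortae measured on 1 one-colour oligonucleotide array, except CT18, which had 2 arrays and was counted as 1 pool. There was no other treatment or genotype, so the groups are the 6 circadian times, each sampled by 2 pools 24 h apart, on a first day (CT18 to CT38) and a second (CT42 to CT62).

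Troponin is the calcium switch of the thin filament in striated muscle. Troponin C binds calcium, troponin I holds the filament off at rest, and troponin T ties the complex to tropomyosin; troponins T and I have separate genes for fast, slow and cardiac fibres, so the isoform present tells the kind of striated muscle, while slow and cardiac fibres share the troponin C gene Tnnc1. Smooth muscle, the contractile tissue of the arterial wall, is regulated by calmodulin and myosin light chain kinase instead, and cardiac muscle sleeves are known on the large veins close to the heart.

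The values are intensities on a linear scale with no absolute unit. Results compare pools for 1 probe set at a time, except where a sum or mean over several genes is named. Mean levels of different probe sets were used only to choose which one stands for a gene or a class. The array medians lay between 70.4 and 87.6, and intensities below a floor of 36.7 were treated as a bound. The tissue label was set against defining markers. The smooth muscle genes Acta2 (3777 to 6848) and Myh11 (1351 to 1957) and the endothelial cadherin gene Cdh5 (440 to 919) were above the floor in every pool, and so was Ucp1, the uncoupling protein of brown fat (5896 to 10111). Pecam1, the other defining endothelial marker, was also above the floor but close to it, at 39.3 to 104. Among the further list genes, Nos3 (endothelium) and Smtn (smooth muscle) were at the floor in 11 pools. Pools stood apart in markers of other tissues, read as summed intensity over the list genes on the array. For 21 genes of the fast muscle list the sum was 42668 at CT34, 33019 at CT18 and 9849 at CT54. That list also holds genes of skeletal muscle in general, such as Acta1 (skeletal actin) and Ckm (muscle creatine kinase). For 10 heart genes it was 16188 at CT42, 15097 at CT38 and 7867 at CT30. For 11 thymus genes it was 5856 at CT54 and 812 at CT42. Bright probe sets weigh most in such sums, Acta1 for example with 11017 at CT34.

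Upstream sequence is shown for 1 member of each class, because the skeletal and the cardiac isoforms were high in different pools. Of the 8 genes, 6 were listed with a promoter in the RefSeq table of mouse assembly GRCm38.p6, and Tnnt3 and Tnni2 were not. The 250 bases before the transcript start are printed 5′ to 3′ on the gene's own strand, with the motifs searched in capitals.
Tnnc2 (fast), chr2:164779735-164779984, minus strand: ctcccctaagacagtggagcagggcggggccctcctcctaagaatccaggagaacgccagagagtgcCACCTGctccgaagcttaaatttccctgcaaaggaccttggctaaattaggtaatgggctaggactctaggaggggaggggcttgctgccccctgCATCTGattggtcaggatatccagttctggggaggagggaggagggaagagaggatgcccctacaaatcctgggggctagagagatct
Tnnt1 (slow), chr7:4515976-4516225, minus strand: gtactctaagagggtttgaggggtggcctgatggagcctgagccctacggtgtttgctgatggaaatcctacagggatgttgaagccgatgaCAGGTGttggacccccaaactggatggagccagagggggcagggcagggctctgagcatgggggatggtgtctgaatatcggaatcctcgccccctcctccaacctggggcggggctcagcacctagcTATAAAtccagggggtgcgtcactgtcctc
Tnnt2 (cardiac), chr1:135836084-135836333, plus strand: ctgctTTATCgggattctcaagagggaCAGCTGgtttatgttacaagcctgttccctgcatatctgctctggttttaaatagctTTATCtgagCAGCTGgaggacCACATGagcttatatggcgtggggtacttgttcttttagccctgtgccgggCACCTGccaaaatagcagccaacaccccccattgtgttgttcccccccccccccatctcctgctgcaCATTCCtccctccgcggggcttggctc
Tnnc1 (slow and cardiac), chr14:31208062-31208311, plus strand: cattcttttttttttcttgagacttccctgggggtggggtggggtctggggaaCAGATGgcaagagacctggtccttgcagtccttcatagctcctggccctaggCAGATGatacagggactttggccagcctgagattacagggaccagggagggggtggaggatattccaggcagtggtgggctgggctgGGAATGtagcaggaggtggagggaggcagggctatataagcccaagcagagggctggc
Both strands were searched for the E-box CANNTG (bound by myogenic factors), the M-CAT element CATTCC, the GATA site GATAA, the TATA box TATAAA, the MEF2 site and the CArG box, each on its own, so that matches of different motifs may overlap. All 6 troponin promoters held an E-box, as did 66% of the first-listed promoters of 27025 genes. CATTCC, or GGAATG on the other strand, was found in Tnnt2 and Tnnc1, that is 2 of 6, against 12.6% of all promoters. Tnnt2 alone of the 6 held GATAA (2 copies, read here as TTATC; 23% of all promoters), and Tnnt1 alone held TATAAA (13%), 30 bases before the start. The MEF2 site (3.01% of all promoters) and the CArG box (1.4%) were found in none of the 6 windows, each the first listed for its gene. Tnnt2 and Tnni1 had a second listed window. That of Tnnt2 held 1 E-box and none of the other motifs, and that of Tnni1 held 2 E-boxes and none of the others. A match of letters is a description of the sequence and does not show that a factor binds there.

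The fast isoforms varied more than 4-fold between pools and all peaked in the same pool. Tnnt3, the troponin T of fast fibres (92885_at), had a lowest intensity of 416 at CT54, a median of 1087 and a highest of 4278 at CT34. It stood at 3133 at CT18, 2680 at CT58 and 1741 at CT46, and 449 at CT26. CT34, CT18 and CT58 were thus high and the rest lower, with no pool between 1741 and 2680, and the range of 10.3-fold (log2 of 3.36) was wider than that of 98.6% of the probe sets kept.

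Tnni2, the inhibitory subunit of fast fibres (93532_at), ran from 119 at CT54 through a median of 275 to 914 at CT34. Its next highest pools were CT18 (694), CT58 (517) and CT46 (439), and its second lowest was CT26 (148). The order of the 4 highest pools and of the 2 lowest was that of Tnnt3, and the range was 7.66-fold. Tnnc2, the calcium sensor of fast fibres (162325_f_at), ran from 544 at CT54 through a median of 968 to 2241 at CT34, a 4.12-fold range. CT18 (2116), CT58 (1490) and CT46 (1243) again followed, and CT26 (697) was again the second lowest. Its other probe set (93259_at) was at the floor in all 12 pools and gave no measure of change. The Tnnc2 values therefore rest on 162325_f_at alone, and whether that probe set also reads other genes was not tested.

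The array duplicate at CT18 bounds the error of hybridisation. The log2 difference between the 2 CT18 arrays was 0.01 for Tnnt3 (3143 and 3123), 0.05 for Tnni2 (705 and 683) and 0.02 for Tnnc2 (2131 and 2102). Over all probe sets kept the median was 0.19 and the 95th percentile 1.15. The differences between pools in the fast isoforms were therefore far larger than those between these arrays. Whether both arrays came from the same pooled RNA is not labelled, so the spread between separate pools of one time point was not measured. In pooled tissue, fewer fibres of a type and less RNA per fibre cannot be told apart.

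**Figure D1:**
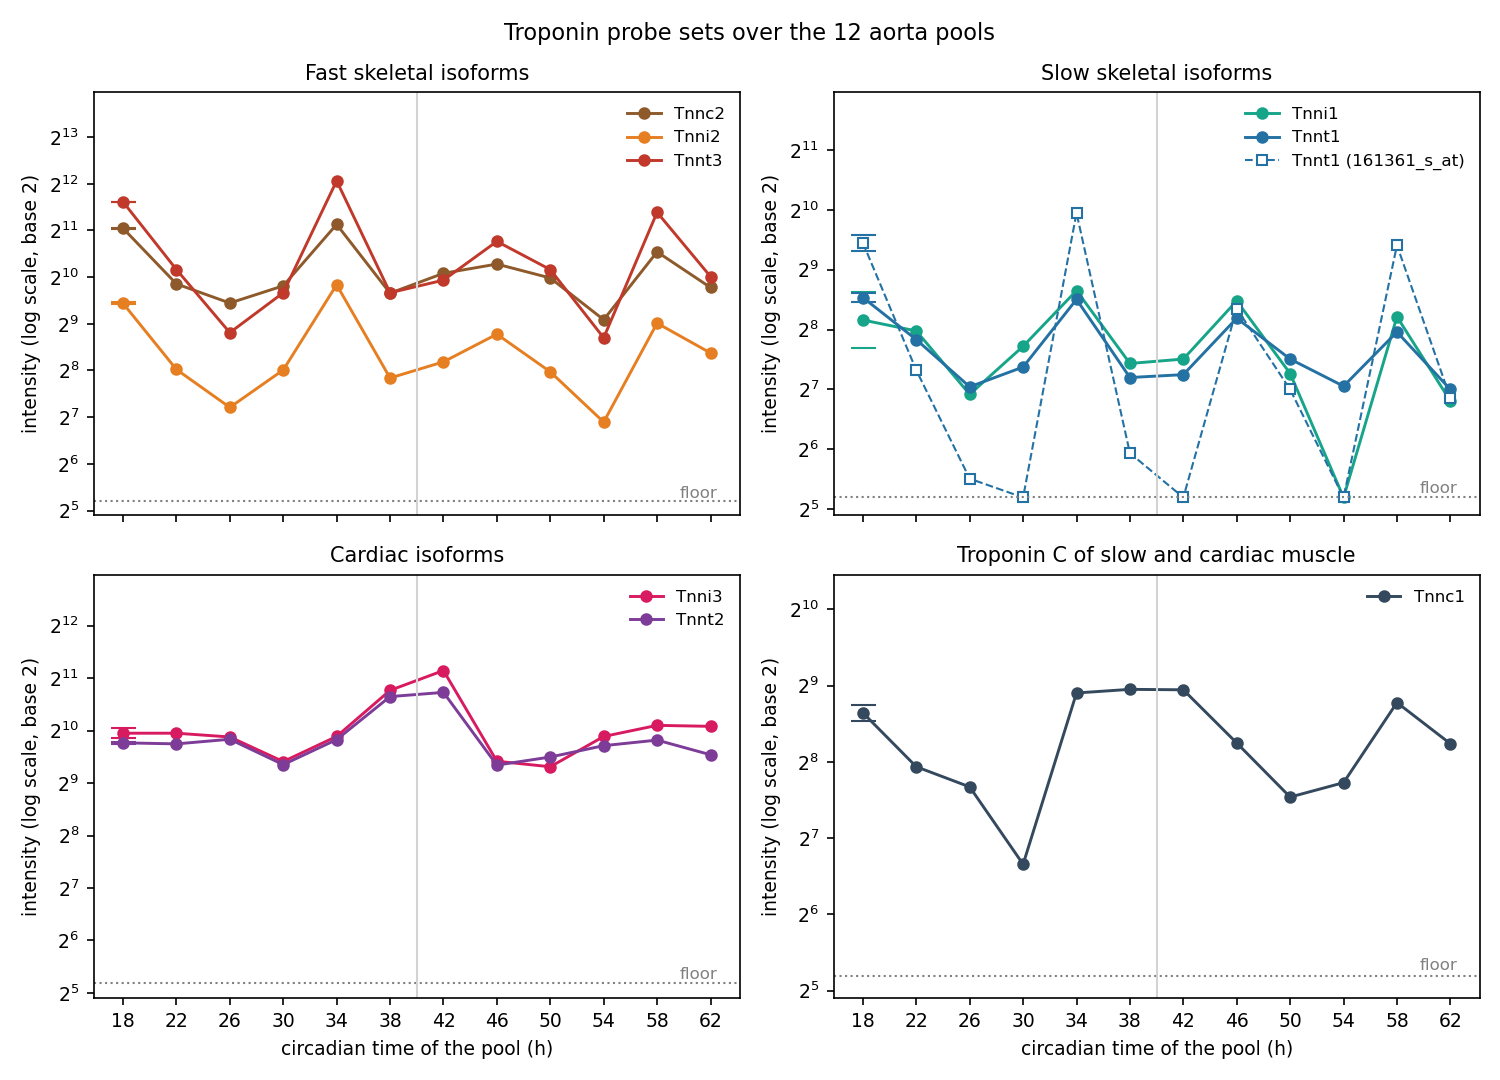
Intensity (log scale, base 2) of the 9 troponin probe sets kept, by circadian time of the pool in hours; points are pools, short bars at CT18 are the 2 arrays, the grey line parts the first day from the second and the dotted line is the floor of 36.7. The fast and slow isoforms are high at CT18, CT34, CT46 and CT58, the cardiac isoforms at CT38 and CT42, and Tnnc1 is high at CT34, CT38 and CT42.

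The slow isoforms were high in the same pools as the fast ones. Tnnt1, the troponin T of slow fibres (101383_at), ran from 128 at CT62 through a median of 174 to 371 at CT18, a 2.91-fold range, with 363 at CT34, 292 at CT46 and 249 at CT58. The 4 pools highest in Tnnt1 were the 4 highest in Tnnt3. The second Tnnt1 probe set (161361_s_at) gave 987 at CT34, 699 at CT18, 679 at CT58 and 326 at CT46, and was at the floor at CT30, CT42 and CT54, a range of at least 26.9-fold. Both probe sets put the same 4 pools on top (r = 0.90 over 12 pools) but differed in the size of the range.

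Tnni1, the inhibitory subunit of slow fibres (98561_at), reached 402 at CT34, 357 at CT46, 297 at CT58 and 286 at CT18, with a median of 196. At CT54 it was below the floor, so its range was at least 10.9-fold; leaving that pool aside, the lowest was 112 at CT62. Its CT18 value is less sure than the others, because the 2 arrays read 207 and 395, a log2 difference of 0.94.

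The cardiac isoforms followed another order of pools. Tnni3, the inhibitory subunit of heart muscle (100921_at), ran from 635 at CT50 through a median of 968 to 2263 at CT42, a 3.57-fold range. CT38 was the second highest at 1742, and the third, CT58, was at 1097. Tnnt2, the troponin T of heart muscle (100593_at), ran from 649 at CT46 through a median of 865 to 1696 at CT42, a 2.61-fold range, with 1604 at CT38 and 913 at CT26 next. In both genes CT38 and CT42, neighbouring time points on different days, stood above every other pool.

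Those pools were not among the 4 highest in any skeletal troponin. At CT38 and CT42 Tnnt3 was at 812 and 979, both below its median of 1087, Tnni2 at 229 and 291 around its median of 275, and Tnnc2 at 807 and 1084 around its median of 968. Conversely, at CT34, the top pool of all 3 fast isoforms, Tnni3 was at 948 and Tnnt2 at 909, near their medians. On a log2 scale centred on each gene's mean, the fast isoforms averaged 1.48 at CT34 and the cardiac isoforms -0.04, while at CT42 the fast isoforms averaged -0.13 and the cardiac isoforms 1.04.

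Tnnc1, the calcium sensor shared by slow and cardiac muscle (101063_at), was high in pools of both kinds. It stood at 495 at CT38 and 493 at CT42, where the cardiac isoforms were highest, and at 479 at CT34, 439 at CT58 and 400 at CT18, where the fast and slow isoforms were high. The lowest was 101 at CT30, the median 303 and the range 4.9-fold. After CT30, the lowest were CT50 (186) and CT26 (204), and these 3 pools were neither among the 4 highest in Tnnt3 nor the 2 highest in Tnni3.

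A least-squares fit on linear intensity, chosen after these values were seen and given with no test, put numbers on this. Over the 12 pools the intensity of Tnnt1 alone accounted for 0.144 of the variance of Tnnc1 (R2), that of Tnni3 alone for 0.477, and both together for 0.831. Leaving out any 1 pool gave 0.813 to 0.876 for both together, 0.055 to 0.28 for Tnnt1 alone and 0.39 to 0.608 for Tnni3 alone. Both slopes stayed positive in each of these fits, at 0.816 to 1.1 for Tnnt1 and 0.225 to 0.345 for Tnni3. No fast isoform was tried in place of Tnnt1, although their r with Tnnt1 on log2 intensity was 0.86 to 0.90. The fit therefore cannot tell a slow from a fast skeletal share.

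Correlations over the 12 pools were computed for all 28 pairs of the 8 genes on log2 intensity, with 2-sided p-values from 100000 permutations and Benjamini-Hochberg adjustment over the 28. A total of 12 pairs passed an adjusted p of 0.05, by Pearson's r and by Spearman's rho alike. All 10 pairs among the 5 skeletal genes were among them. The 3 fast pairs had r of 0.97 to 0.98 and rho of 0.91 to 0.94, with an adjusted permutation p of 9.33e-05 each, the smallest this number of permutations and pairs gave. The 6 pairs of a fast with a slow isoform had r of 0.81 to 0.90 and rho of 0.73 to 0.89 (adjusted permutation p 0.00056 to 0.00196). The slow pair, Tnnt1 with Tnni1, had r = 0.79 and rho = 0.90 (adjusted permutation p 0.00283).

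The relations were positive within each day, and those of the fast isoforms and Tnni1 held without the pools highest in Tnnt3. Over the 6 pools of the first day the 10 skeletal pairs had r of 0.88 to 0.99, and over the second day 0.69 to 0.97. Without the 2 pools farthest from the median of either gene, r was 0.69 to 0.96. Without CT18, CT34 and CT58, the 3 pools highest in Tnnt3 (a choice made after the values were seen), the 3 fast pairs and the 3 pairs of Tnni1 with a fast isoform still passed, while the 4 skeletal pairs of Tnnt1, including that with Tnni1, did not (r of 0.61 to 0.76, adjusted permutation p 0.0561 to 0.167).

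Tnnt2 with Tnni3 had r = 0.94 and rho = 0.71 (adjusted permutation p 0.000933 for r), with r = 0.99 on the first day and 0.94 on the second. Without CT38 and CT42 r was 0.77, over Tnni3 values that then fell into separate clusters, so the size of the relation rests in part on those 2 pools. None of the 10 pairs of a cardiac with a fast or slow skeletal isoform passed: r was -0.11 to -0.04 with the fast isoforms (adjusted permutation p 0.9) and -0.27 to -0.04 with the slow (0.592 to 0.9). At 12 pools, weak relations in either direction could not be detected.

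Tnnc1 with Tnni3 passed (r = 0.69, rho = 0.82, adjusted permutation p 0.0333 for r), at r = 0.74 on the first day and 0.77 on the second. The call did not hold without CT38 (r = 0.64, adjusted permutation p 0.0724), CT42 (0.67, 0.0617) or CT50 (0.65, 0.0829). Tnnc1 with Tnnt2 had r = 0.65 (adjusted permutation p 0.0541), with the fast isoforms 0.52 to 0.54 (0.135 to 0.146) and with the slow ones 0.35 to 0.36 (0.401 to 0.408). Without the heart-rich pools CT38 and CT42, r of Tnnc1 with Tnnt3 was 0.75, with Tnni2 0.72 and with Tnnc2 0.70. The adjusted permutation p was 0.0314, 0.0401 and 0.0487. Tnnt1 (0.65, 0.0777), Tnni1 (0.42, 0.346) and Tnnt2 (0.55, 0.164) did not pass. CT38 and CT42, also the pools highest in Tnnc1, were chosen after the values were seen. Without CT18, CT34 and CT58, so chosen too, r of Tnnc1 was 0.24 with Tnnt3, 0.26 with Tnni2 and 0.22 with Tnnc2. It was then -0.03 with Tnnt1 and 0.11 with Tnni1, and none of these passed. With Tnni3 it was 0.80 (adjusted permutation p 0.0384) and with Tnnt2 0.76 (0.0509). The relation of Tnnc1 to the skeletal isoforms thus depended on which pools were left out.

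**Figure D2:**
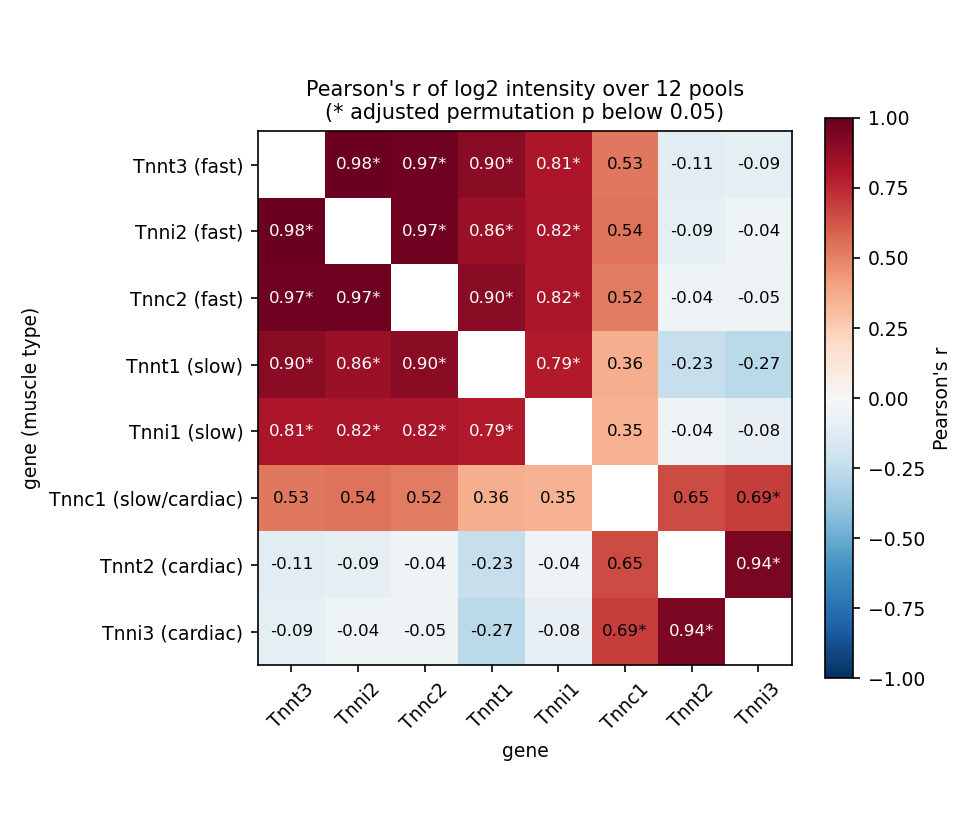
Pearson's r over 12 pools (colour and number, from -1 to 1) for each pair of troponin genes, ordered by muscle type on both axes, with an asterisk where the adjusted permutation p is below 0.05. The 5 skeletal genes form a block of r from 0.79 to 0.98, Tnnt2 and Tnni3 pair at 0.94, and Tnnc1 lies between, with 0.35 to 0.69.

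Some correlations that share a gene lay far apart and others close. They are given as values without a test, since the pairs set side by side were chosen from the 28 after they were seen. The r of Tnnt3 with Tnni2 exceeded that with Tnni3 by 1.07, and the r of Tnni3 with Tnnt2 exceeded that with Tnni2 by 0.98. The r of Tnnt1 with Tnni1 minus that with Tnnt3 was -0.12.

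**Figure D3:**
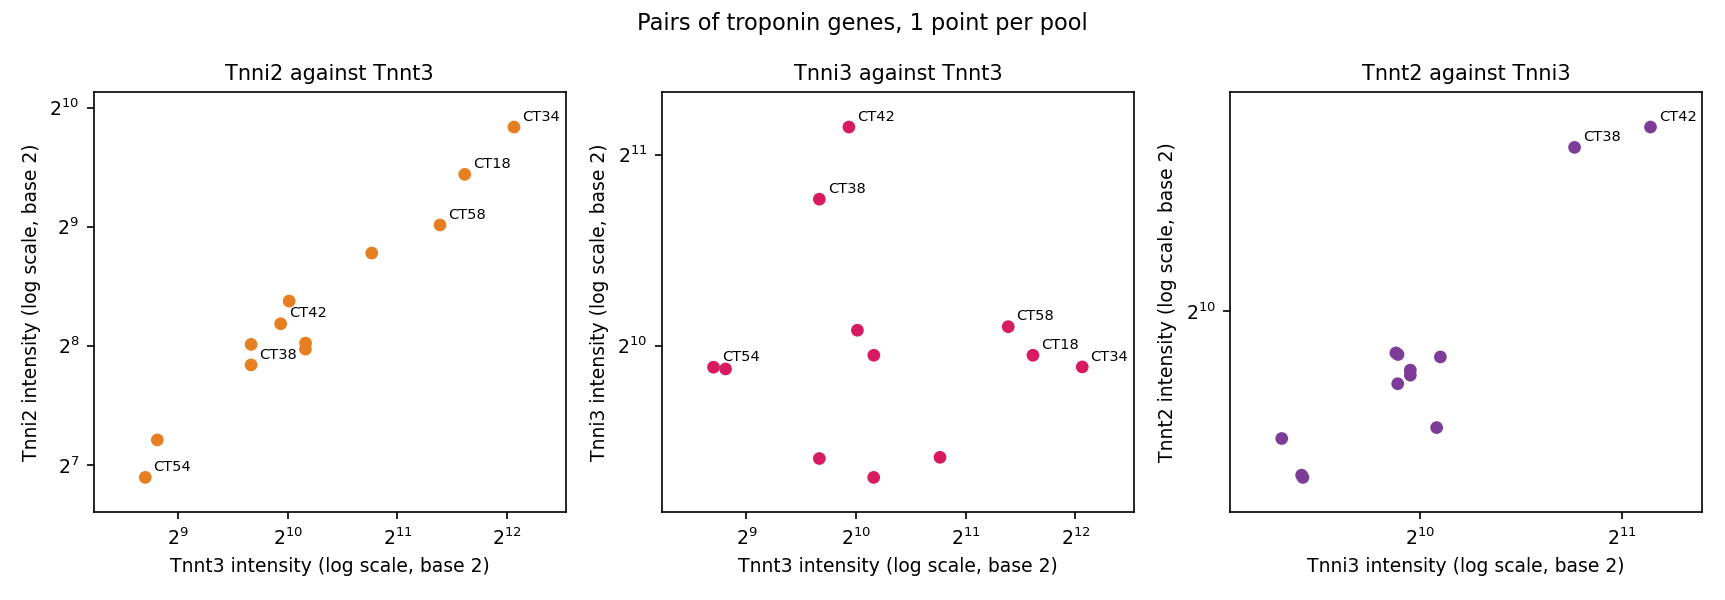
Intensity of 1 troponin gene against another (log scales, base 2), 1 point per pool, with pools named that are high or low in Tnnt3 or Tnni3. Tnni2 follows Tnnt3 along a line (r = 0.98), Tnni3 does not follow Tnnt3 (r = -0.09), and Tnnt2 follows Tnni3 (r = 0.94) with CT38 and CT42 apart from the rest.

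The neighbours in the genome were alike in 1 of 3 pairs, the one whose genes serve the same muscle. In RefSeq (GRCm38.p6) troponin genes lie in neighbouring pairs of an inhibitory and a tropomyosin-binding subunit. Tnni2 and Tnnt3, on chromosome 7 with Lsp1 as the 1 protein-coding gene between them, are both fast isoforms and had r = 0.98. Tnni3 and Tnnt1, also on chromosome 7 and with 0 protein-coding genes between them, serve different muscles and had r = -0.27. Tnni1 and Tnnt2, on chromosome 1 with Lad1 between them, also serve different muscles and had r = -0.04.

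The genes outside the troponin family most like each class lead were then named, the lead being the member with the highest mean over pools. For Tnnt3 they were Atp2a1 (the calcium pump of fast fibres, r = 0.98), Ckm (muscle creatine kinase, 0.98), Acta1 (skeletal actin, 0.97), Myl1 (a fast myosin light chain, 0.97) and Casq1 (the calcium store protein of skeletal muscle, 0.95). All 5 were highest at CT34 and lowest at CT54, Acta1 for example at 11017 and 3098. Among all 7452 other probe sets kept, Tnni2 ranked 1st in r with Tnnt3, Tnnc2 ranked 4, Tnnt1 21, Tnni1 42 and Tnni3 4550. An r of 0.8 or more with Tnnt3 was reached by 0.604% of them.

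For Tnnt1 the 5 were Myl2 (the myosin light chain of slow and ventricular muscle, r = 0.96), Pvalb (a calcium buffer of fast fibres, 0.95), Myh4 (a fast myosin heavy chain, probe set 98488_at, 0.94), Atp2a1 (0.94) and Ckmt2 (mitochondrial creatine kinase of striated muscle, 0.91). Myl2 stood at 1613 at CT34, 1102 at CT18 and 1076 at CT58 and was at the floor in 5 pools. Of these 5, Pvalb, Myh4 and Atp2a1 are fast-fibre genes, so the genes most like the slow troponin T were of both fibre types.

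For Tnni3 they were Myl4 (r = 0.97) and Myl7 (0.96), both atrial myosin light chains, Myh6 (the alpha myosin heavy chain of heart, 0.94), Actc1 (cardiac actin, probe set 101028_i_at, 0.91) and Ankrd1 (a stress-responsive protein of heart muscle, 0.86). Myl7 was at 4568 at CT42 and 4064 at CT38, against a median of 1722 and a lowest value of 1121 at CT30. The other Actc1 probe set (101029_f_at), which stands for the gene in the heart list, had r = 0.38, a highest value at CT34 and a range of 1.23-fold. All 5 probe sets named as most alike were highest at CT42. Among the members, Tnnt2 ranked 3 in r with Tnni3 over all probe sets. An r of 0.8 or more with Tnni3 was reached by 0.161% of probe sets. These r values are descriptions over the same 12 pools that set the likeness.

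Lists of marker genes with no troponin in them were set beside the members. Of 25 genes of the fast muscle list 20 were kept, and their median r with Tnnt3 was 0.91, with 15 at 0.8 or above. With Tnnt1 their median r was 0.77, with 8 at 0.8 or above. Of the 20, 18 were highest at CT34. The defining marker Actn3, the alpha-actinin of fast fibres, ran from 119 at CT54 to 383 at CT34 (r = 0.93). The probe set that stands for Myh4 here (161545_r_at) had r = 0.28, and its other probe set (98488_at) 0.94. Of 9 slow muscle genes 5 were kept, with a median r of 0.57 with Tnnt1, and Myh7, the slow and cardiac myosin heavy chain, ran from 117 at CT62 to 660 at CT42 (r = 0.58). Of 11 heart genes 9 were kept, with r of 0.24 to 0.97 with Tnni3 (median 0.75, 4 at 0.8 or above) and 6 highest at CT42. The atrial hormone gene Nppa stood at 1435 at CT38, 989 at CT42 and 112 at CT54 (r = 0.75). Gja5 (r = 0.24, highest at CT46) and Mybpc3 (r = 0.26) followed Tnni3 least of those kept. Sln, which was not kept, was at the floor in 7 pools and had r = -0.22.

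Each member was correlated with the mean centred profile of each of 8 lists, and 13 of these 64 relations passed after adjustment over the 64. With the fast list r was 0.97 for Tnnt3, 0.95 for Tnni2, 0.96 for Tnnc2, 0.86 for Tnnt1 and 0.72 for Tnni1, and with the slow list 0.94, 0.88, 0.93, 0.93 and 0.77. The slow profile leans on Myl2: it alone of the 5 kept genes reached r of 0.8 with Tnnt1 (0.96), and the others had 0.58 (Myh7), 0.57 (Ankrd2), 0.48 (Casq2) and -0.05 (Myl3). Without Myl2 r with the slow profile was 0.73 for Tnnt3, 0.72 for Tnni2, 0.80 for Tnnc2 and 0.61 for both Tnnt1 and Tnni1. With the heart list it was 0.92 for Tnni3, 0.89 for Tnnt2 and 0.73 for Tnnc1. By rank, rho with the heart list was 0.90 for Tnnc1 and 0.87 for Tnni3, whereas Tnnt2 did not pass by rank (rho = 0.63, adjusted permutation p 0.16). Without CT38 and CT42 r with the heart list was 0.63 for Tnni3 and 0.34 for Tnnt2, so the relation of Tnnt2 to that list rests on those 2 pools. Leaving out CT38 (r = 0.84, adjusted permutation p 0.077) or CT42 (0.80, 0.0711) alone ended the Tnnt2 call. The call of Tnnc1 with the heart list did not hold without CT22, CT26, CT38, CT42, CT50 or CT54 (r of 0.69 to 0.73, adjusted permutation p 0.0554 to 0.0874). That of Tnni1 with the fast list did not hold without CT18, CT26, CT34, CT38, CT42, CT50, CT54 or CT58 (r of 0.67 to 0.73, adjusted permutation p 0.0502 to 0.124), and that with the slow list without CT18, CT26, CT38, CT50 or CT58 (0.73 to 0.76, 0.0545 to 0.0895).

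The members followed none of the lists for thymus, fat, smooth muscle, endothelium or blood at an adjusted permutation p of 0.05. Within a day, however, r of the fast isoforms with the fat list was 0.71 and 0.90 for Tnnt3 on the first and second day, 0.73 and 0.91 for Tnni2, and 0.69 and 0.89 for Tnnc2, and 0.75 for each without CT18 and CT34, against 0.27 to 0.36 over 12 pools. The lowest adjusted p was 0.173, for Tnni2 with the endothelium list (r = -0.60), followed by Tnnt3 with that list (r = -0.58, 0.191). On the first day r of the fast isoforms with the endothelium list was -0.88 to -0.84, and on the second -0.02 to 0.15. In smooth muscle, the contractile cell of the aortic wall, r was 0.08 to 0.43. The thymus genes varied widely, Rag1 from below the floor to 1460 at CT54, while r of that list with the 8 members was -0.31 to 0.06 over 12 pools. Within a day it was 0.12 to 0.28 on the first and -0.76 to -0.12 on the second. Without CT26 and CT42, the pools farthest from the median of the list, r was -0.64 to -0.49 for the skeletal members. For Tnnc1, Tnnt2 and Tnni3 it was then -0.16, 0.25 and 0.36. Ptcra, the other defining thymus marker, was highest at CT46 (269) and had r = -0.52 with Tnnt3.

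**Figure D4:**
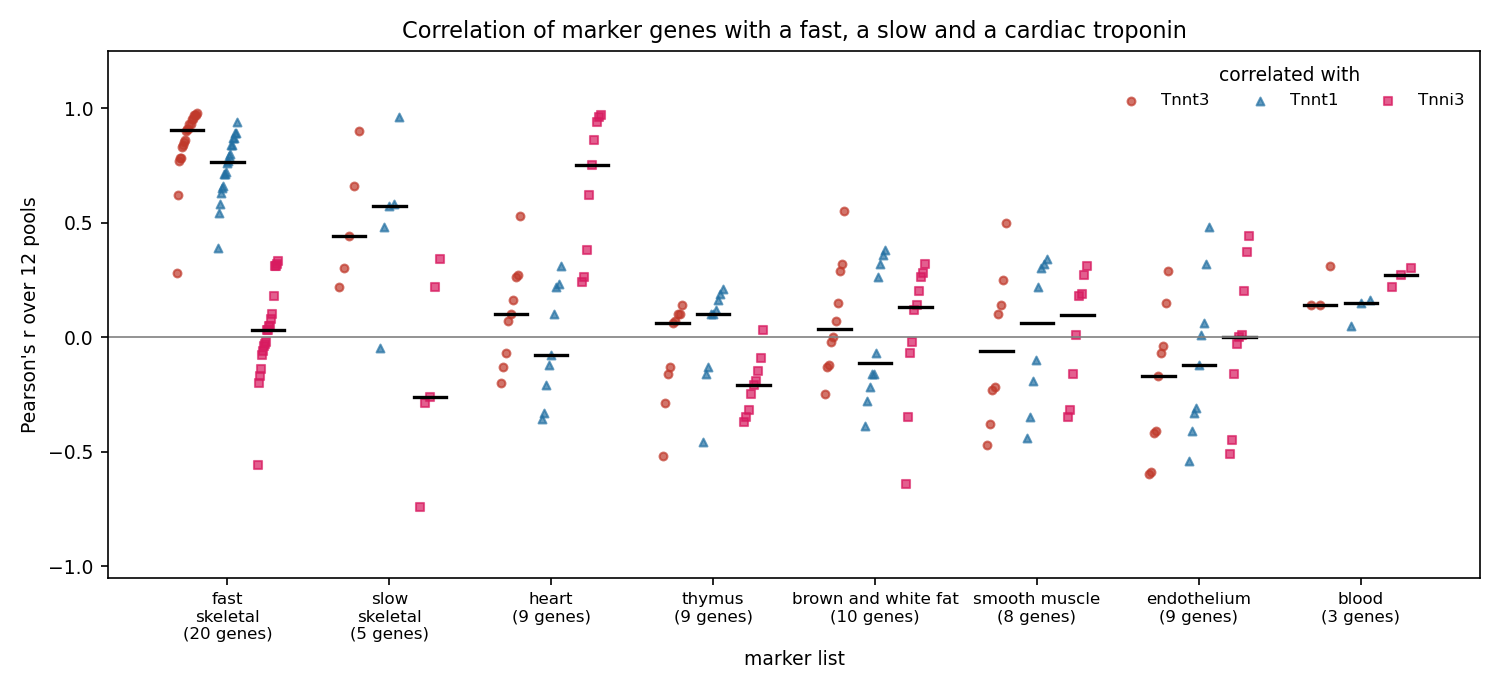
Pearson's r over 12 pools of each kept marker gene with Tnnt3 (circles), Tnnt1 (triangles) and Tnni3 (squares), by marker list; black bars are medians. The fast list lies high for Tnnt3 (median 0.91) and the heart list for Tnni3 (median 0.75), and the lists for thymus, fat, smooth muscle, endothelium and blood scatter on both sides of 0 or near it.

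The time course asks which aortic transcripts follow a 24-h cycle without light. In a 24-h cosine fit over all probe sets kept (limma moderated F test, Benjamini-Hochberg over 7453), 0.349% of probe sets (26) passed an adjusted p of 0.05, and 0 of the 8 troponin genes did. At an unadjusted p under 0.05, 9.96% of probe sets and 2 of the 8 genes, Tnnc1 and Tnni3, passed, and ordinary least squares gave the same 2 (9.43% of probe sets; 0 of the 8 and 0.0537% by its adjusted p). Tnnc1 had a fitted amplitude, the log2 distance from mean to peak, of 0.76 ± 0.17 (SE, 12 pools) with a peak at CT15.3 and an adjusted p of 0.183. Tnni3 had 0.51 ± 0.15 with a peak at CT15.3 and an adjusted p of 0.362.

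In the other 6 genes the adjusted p was 0.607 or more. Amplitudes were not small: the median over the 8 genes was 0.47, against 0.18 over all probe sets kept, with large errors such as 0.60 ± 0.36 for Tnnt3 and 0.43 ± 0.34 for Tnni1. The fit describes little of their variation, an R2 of 0.18 for Tnnt3 and 0.0436 for Tnnt1. Leaving out 1 pool gave Tnnt3 amplitudes of 0.42 (without CT26) to 0.86 (without CT38), and Tnni1 one of 0.07 without CT54. With the heart and thymus profiles as covariates the amplitude of Tnni3 was 0.08 (adjusted p 0.943) and that of Tnnc1 0.73 (adjusted p 0.72), where the adjusted p over all alternatives was 0.291 to 0.943 for Tnni3 and 0.0937 to 0.72 for Tnnc1. In the same fit the skeletal amplitudes were larger than without covariates, at 1.66 for Tnnt3, 1.51 for Tnni2, 0.93 for Tnnc2, 0.68 for Tnnt1 and 0.93 for Tnni1 (adjusted p 0.565 to 0.837). No gene of the 8 passed, and the 1 with an unadjusted p under 0.05 was Tnni2. The heart list holds genes that follow Tnni3, and what these changes stem from was not tested.

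Pools at the same circadian time were often far apart. At circadian time 18, Tnnt3 was at 3133 on the first day and 979 on the second, a mean of 2056 ± 1523 (SD, n = 2 pools). Tnni3 was at 989 and 2263 in the same pools, so that Tnnt3 was higher on the first day and Tnni3 on the second. At circadian time 10 the pools were both high in Tnnt3 (4278 and 2680, mean 3479 ± 1130), and at circadian time 6 both low (812 and 416, mean 614 ± 280). The mean absolute difference between pools 24 h apart was 0.94 on the log2 scale for Tnnt3, larger than in 94.2% of probe sets kept, 0.61 for Tnni3 and 0.44 for Tnnc1, and the median over all kept was 0.35.

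For the day, with the cosine and sine of circadian time as covariates, 0% of probe sets and 0 of the 8 genes passed the adjusted threshold. At an unadjusted p under 0.05, 7.54% of probe sets and 0 of the 8 passed. The second day minus the first was -0.57 ± 0.48 (log2, SE) for Tnni1, 0.12 ± 0.25 for Tnnc1 and 0.02 ± 0.22 for Tnni3. The Tnni1 value rests on CT54, where it was below the floor, and was -0.16 ± 0.37 without that pool. The median over the 8 was -0.18, against -0.03 over all probe sets kept. For a difference in rhythm between the days, 0% of probe sets and 0 of the 8 genes passed by the adjusted p, and 6.98% and 0 of the 8 at an unadjusted p under 0.05. Ordinary least squares likewise called 0 of the 8 in either test, and at an unadjusted p under 0.05 it gave 0 of the 8, against 7.31% of probe sets for the day and 7.16% for the difference in rhythm.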

How the data were processed

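The deposited table held linear intensity values, 1 for each probe set on each array. The software, scaling and genome build behind them were not given in the sources used here. The mean of the authors' intensity values with 2% trimmed at each end was 200.2 on all 13 arrays, and no further scaling was applied. Between 21.3% and 24.2% of an array's intensities were at or below 0. Of 12488 probe sets, 66 controls were left out. A platform annotation gave 10833 of the rest 1 gene and 396 several, and 1193 were not listed; names were matched to RefSeq (GRCm38.p6), where all 10 troponin probe sets kept their symbol.

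Intensities below the 20th percentile of positive values (36.7) were set to that floor, log2 was taken, and the CT18 arrays were averaged. Probe sets with a mean over pools at or above the 40th percentile (log2 of 5.60) were kept: 7453 probe sets of 5655 genes. For a gene with several probe sets, the one highest on average was used. Fits used limma 3.58.1 in R 4.3.3 (eBayes with an intensity trend; 9, 8 and 6 residual degrees of freedom for rhythm, day and their interaction), and correlations used Python 3.11.15. The procedure was tested on simulated data, with changes added to probe sets drawn at random. At an added effect of 0.5 on the log2 scale, 42% of rhythms, 7% of day differences and 22% of rhythm differences were recovered. At an effect of 1 these were 79%, 65% and 82%. Changes of the smaller size could thus be missed. These rates are for probe sets in general, with noise drawn separately for each. The troponin genes varied more, with a median log2 range of 2.17 against 1.09 over all kept. Recovery in them was not measured, and larger changes could be missed too. With 1 pool for a time point, p-values rest on the scatter of pools about the fit, and the number of arrays limits the precision. The 8 members, their classes and the marker lists were chosen with earlier results of these data known. All 8 genes are reported; likeness was read over probe sets with 1 gene. For the lists, defining markers and genes close to the class lead were named. The alternatives were the floor, the filter, normalization, the choice of probe set, the fit and each pool left out. Genes of the lists that the annotation does not name were not analysed here.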

Additional observations from a re-analysis of the deposited data

Results flagged for a closer look

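Each of the 8 genes was examined for a pool far from the others within each day (6 pools), 16 groups in all, by the gap to the nearest other pool divided by the range; chance flags about 1 in 20 such groups. Tnnt2 was far from the rest on both days. On the first day CT38 stood at 1604 and the nearest, CT26, at 913 (a gap of 0.626 of the range on the log2 scale, just past Dixon's 95% critical value). On the second day CT42 stood at 1696 and the nearest, CT58, at 903 (a gap of 0.656). In the same pools the atrial light chain gene Myl7 was at 4064 and 4568, against a median of 1722; the part of cardiac muscle in the Tnnt2 values was not tested.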

How the results depend on the processing

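Under 26 alternatives, 782 of 815 recomputed values were classed as unchanged, 33 lost their call and 0 reversed. Single values were unchanged if they stayed on their side of the threshold. Counts of calls were allowed to move somewhat, so that 8 pairs passing against 12 was classed as unchanged. Of the correlations, only those that passed as reported were compared, and any that fell into clusters were left out. Gained and clustered correlations are therefore not in these numbers. The count of troponin genes called was 0 for rhythm, day and interaction under every alternative run; the adjusted p of Tnnc1 for rhythm ranged from 0.0937 to 0.72. The count of pairs passing was 11 to 13 (12 as reported) when a pool was left out, and 9 to 13 (13 as reported) for relations to lists. Tnni1 with the muscle lists, Tnnc1 with the heart list and, without CT38 (adjusted permutation p 0.077) or CT42 (0.0711), Tnnt2 with the heart list lost their call. Without CT18, CT34 and CT58, chosen after seeing the data, 8 pairs passed, and without CT38 and CT42, so chosen too, 13 did. With the slow list taken without Myl2, also so chosen, r was 0.61 for Tnnt1 and 0.73 for Tnnt3. Without CT38 and CT42 Tnni3 fell into clusters, and 10 of the 12 reported pairs remained. Tnnt2 with Tnnc1 gained its call with arrays centred on their median, on linear intensity, and without CT34 or CT46. Replicate numbers gave no pairing, because they are shared by no 2 time points beyond number 1, which every first array carries. Pools 24 h apart form pairs by circadian time, and their differences were described without a paired test. The test of the day held circadian time through its cosine and sine.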
